A study of Mus musculus with 19 samples.

Results

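The nuclear-encoded subunits of the mitochondrial respiratory chain were described as a set of 68 genes across RNA libraries of sorted mouse blood progenitor cells. Members were the genes whose symbols mark subunits of complexes I to V: the Ndufa, Ndufb, Ndufc, Ndufs and Ndufv genes, Sdha to Sdhd, the Uqcr genes, the lettered Cox4 to Cox8 genes and the Atp5 genes. Each gene was represented by its RefSeq accession with the highest mean count and kept if that mean was 10 or more. Of 33862 accessions, those of 83 genes matched by symbol and 68 genes reached the minimum, 31 of complex I, 4 of complex II, 8 of complex III, 11 of complex IV and 14 of complex V. All 68 also passed the expression filter that left 11830 accessions for testing. The member just inside the minimum was Atp5c1 with a mean count of 11.3, and the gene just outside it was Atp5g1 with 9.63.

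The 19 libraries came from primary, uncultured lin-Sca+cKit+ cells, the sorted fraction that holds stem and early progenitor cells, of C57BL/6 mice. Untreated wild-type mice gave 4 libraries (WT). Mice of the genotype Idh2 R140Q;Flt3-ITD gave 3 libraries under vehicle (IDH2-FLT3 vehicle) and 4 under AG-221, an inhibitor of mutant IDH2 given by gavage 2 times a day for 4 to 5 weeks, at 100 mg/kg as a single agent or at 40 mg/kg when combined with another drug. Mice labelled Tet2-/-;Flt3-IDT gave 4 libraries under vehicle (TET2-FLT3 vehicle) and 4 under 5-Aza, a hypomethylating drug injected daily at 5 mg/kg for 5 days of each 21-day cycle for 4 cycles. Sample labels name 5-Aza where the series' design text also writes decitabine, another drug of that class, so which one was given is not settled here. Every mutant group thus carried the Flt3 internal tandem duplication and the WT group did not. Which library received which AG-221 dose is not in the labels, nor are the way the alleles were driven and whether the libraries are from separate animals, so the p-values cover only how far libraries of a group differ from each other, which may be technical.

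The respiratory chain sits in the inner mitochondrial membrane and passes electrons from NADH and succinate to oxygen. Complexes I and II take in electrons, complex III hands them to cytochrome c, complex IV reduces oxygen, and complex V uses the resulting proton gradient to make ATP. The genes described here are transcribed in the nucleus and their proteins are imported, in contrast to the few subunits encoded in mitochondrial DNA. Blood stem cells are known for keeping respiration low at rest and raising it as they differentiate, and complex IV has pairs of subunit isoforms of which one is typical of heart and skeletal muscle.

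Promoter sequences are shown for members whose levels are described below, 2 subunits made from longer transcripts (Sdha, Atp5b), the general and the muscle-type isoforms Cox6a1 and Cox7a1, and Cox5a. They are RefSeq sequences of GRCm38.p6, from 250 bases before to 50 bases after the gene start on the gene's strand, while the deposited counts were made on mm9. Capitals mark matches to GCGCANGCG, the core letters bound by the nuclear respiratory factor NRF1, on either strand. This motif is nearly its own reverse complement, so that neighbouring matches overlap.
Cox6a1, chr5:115348909-115349208, minus strand: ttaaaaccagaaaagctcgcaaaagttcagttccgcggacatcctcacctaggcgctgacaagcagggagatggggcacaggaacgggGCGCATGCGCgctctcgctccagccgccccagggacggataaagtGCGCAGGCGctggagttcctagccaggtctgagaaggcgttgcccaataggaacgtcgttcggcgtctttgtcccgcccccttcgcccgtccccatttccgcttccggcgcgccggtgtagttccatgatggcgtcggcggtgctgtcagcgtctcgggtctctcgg
Sdha, chr13:74350191-74350490, minus strand: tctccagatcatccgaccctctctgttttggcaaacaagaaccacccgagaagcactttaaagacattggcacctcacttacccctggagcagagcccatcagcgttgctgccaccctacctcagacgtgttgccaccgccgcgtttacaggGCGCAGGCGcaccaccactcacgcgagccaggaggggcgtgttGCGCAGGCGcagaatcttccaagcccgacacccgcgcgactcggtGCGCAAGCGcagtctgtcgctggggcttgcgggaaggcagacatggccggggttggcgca
Atp5b, chr10:128083057-128083356, plus strand: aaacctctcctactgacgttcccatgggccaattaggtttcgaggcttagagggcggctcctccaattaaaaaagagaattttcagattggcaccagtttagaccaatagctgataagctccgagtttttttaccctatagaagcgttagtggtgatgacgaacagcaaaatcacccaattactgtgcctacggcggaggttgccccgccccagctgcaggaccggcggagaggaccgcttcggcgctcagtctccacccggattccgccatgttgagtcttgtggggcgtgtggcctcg
Cox5a, chr9:57520982-57521281, plus strand: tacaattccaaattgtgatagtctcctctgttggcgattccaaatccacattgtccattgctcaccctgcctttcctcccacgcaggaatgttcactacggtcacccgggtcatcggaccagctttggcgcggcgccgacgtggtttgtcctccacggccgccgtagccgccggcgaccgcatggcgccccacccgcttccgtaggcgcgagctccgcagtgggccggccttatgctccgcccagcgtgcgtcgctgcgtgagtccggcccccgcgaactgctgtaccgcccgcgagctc
Cox7a1, chr7:30183921-30184220, plus strand: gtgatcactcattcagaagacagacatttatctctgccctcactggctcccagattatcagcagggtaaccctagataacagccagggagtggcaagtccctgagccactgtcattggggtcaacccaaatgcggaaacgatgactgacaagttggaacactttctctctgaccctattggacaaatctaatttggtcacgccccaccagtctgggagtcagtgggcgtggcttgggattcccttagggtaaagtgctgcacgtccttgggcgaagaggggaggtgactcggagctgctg
The Cox6a1 and Sdha windows held 3 matches each, and the other 3 windows held none. The windows of Cox6a1, Sdha, Atp5b and Cox5a held 32, 25, 18 and 35 CpG dinucleotides and that of Cox7a1 held 7, where the median was 19 over members and 8 over all promoters. Of the 68 members, 56 matched a promoter in the table, and 17 of these (30.4%) held the NRF1 core, against 7.03% of 27025 promoters of all genes and 14.2% of 8906 promoters of other tested genes. The letters AAGATGGC, which the factor YY1 binds, were found in 14.3% of members against 3.19% and 5.12%. The letters CCGGAAGT, which GABPA and other ETS factors bind, were found in 8.93% of members against 4.31% and 8.86%. In all, 28 of 56 member promoters held at least 1 of the 3 motifs, against 13.2% of all promoters and 25.5% of those of other tested genes. These are letter matches in a fixed window and no measurement of binding.

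Total counts per library lay between 9635795 and 20383132. Library V1 of TET2-FLT3 vehicle had the fewest detected accessions (12088) and the largest share of counts in its most abundant accession (9.50%). Vehicle libraries V3-2 and V5-2 had the smallest such shares (0.808% and 0.866%). The labels' cell type could be checked only in part: the sort markers Ly6a and Kit, which have 6 and 2 accessions, were at 0 and at 0.151 CPM (counts scaled to the library total) or less in all 19 libraries, and Cd34 stood at 2.32 to 30.2 CPM. Genes with several accessions had low counts more often, with 75.7% of 5140 such genes under a mean count of 10 against 51.7% of 19070 genes with 1 accession. The same held for the chain, where 10 of the 15 genes under the minimum had 2 or more accessions, against 3 of the 68 members. Those 15 were the core complex I genes Ndufs1, Ndufs8 and Ndufv2, the accessory Ndufa7, Ndufs5 and Ndufs6, and Ndufa4l2, Cox6b2, Cox7a2l, Cox7b2, Cox8b, Cox8c, Atp5g1, Atp5g3 and Atp5pb. A low count of such a gene is not read here as low expression, nor is a high count of the pseudogene Ndufs5-ps, whose reads may belong to Ndufs5.

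FPKM are the authors' values, counts scaled to transcript length and library depth, given here for WT as mean ± SD (n = 4). Per transcript length, the highest levels in WT cells were those of members with transcripts under 1000 bases. Not all such members were high, as Cox7c and Atp5l read 17.6 to 30.4 and 6.84 to 9.77 FPKM. In complex I Ndufa4, a small protein now also counted with complex IV, stood at 2795 ± 555, Ndufa3 at 1470 ± 63.7, Ndufa6 at 906 ± 27.0 and Ndufb8 at 823 ± 112. Ndufv1, the subunit that binds NADH, was lower at 99.0 ± 21.1. In complex II the membrane anchors Sdhd (369 ± 55.5) and Sdhc (244 ± 22.6) and the iron-sulfur protein Sdhb (345 ± 47.0) were above the flavoprotein Sdha (125 ± 15.6). The small complex III subunits Uqcrh, Uqcr10 and Uqcr11 stood at 1087 ± 121, 1054 ± 132 and 628 ± 37.5, against 251 ± 64.4 and 232 ± 14.1 for the large core proteins Uqcrc1 and Uqcrc2. In complex IV Cox6a1, Cox6b1 and Cox6c reached 1244 ± 116, 1110 ± 171 and 827 ± 51.2, while Cox5a and Cox5b, which bind the catalytic core, stood at 155 ± 20.1 and 120 ± 14.6. In complex V the epsilon subunit Atp5e led with 1816 ± 419, followed by Atp5mpl (982 ± 38.9) and Atp5j2 (687 ± 27.2), and the catalytic beta and alpha subunits Atp5b and Atp5a1 stood at 596 ± 116 and 449.8 ± 51.2. The gamma subunit Atp5c1, with 2 accessions, read 0.682 ± 0.3003, and Atp5j and Atp5g2 read 1.58 ± 0.332 and 3.25 ± 0.740, far under the subunits they are assembled with.

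Most members varied together from library to library. The correlation (Spearman's rho over 19 libraries, as a description) of a member with the median of the others exceeded 0.7 for 42 members, 38 of them under 1000 bases long, and reached 0.99 for Uqcr11. It was below 0 for 12 members, 9 of them of 1000 bases or more, with Uqcrc1 (-0.53), Ndufv3 (-0.50), Sdha (-0.44), Ndufs3 (-0.35), Atp5b (-0.32) and Atp5a1 (-0.23) lowest. The summed member level was 17629 to 19673 CPM in the 4 WT libraries, 43970 CPM in V1 and 36575 CPM in library AZ17 of 5-Aza, but 12442 CPM in V3-2 and 12980 CPM in V5-2. V1 was the highest of the 19 libraries for 36 members and AZ17 for 15, while V3-2 was the lowest for 23 and V5-2 for 19.

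**Figure D1:**
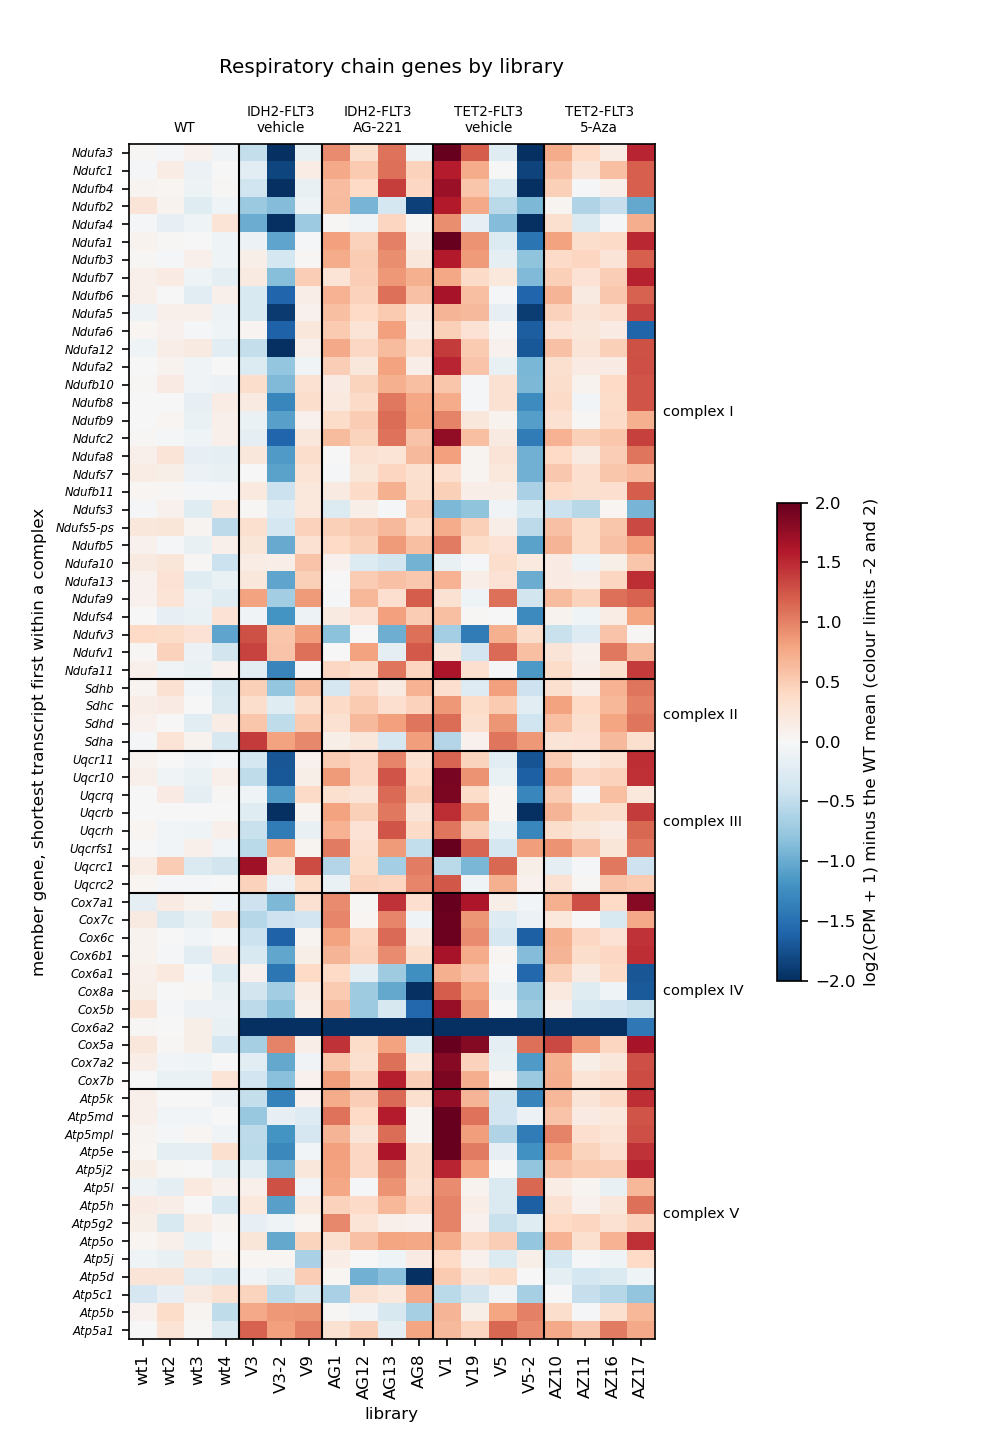
Heat map of 67 members (rows, by complex and transcript length) in the 19 libraries (columns, by group), coloured by log2(CPM + 1) minus the mean of the 4 WT libraries. V1 and AZ17 are red and V3-2 and V5-2 blue across most short members, and Cox6a2 is blue in all 15 mutant libraries.

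Members were shorter than most transcripts, with a median of 644 bases (292 for Atp5k to 2859 for Sdha) against 2601 for tested accessions, and 49 of 68 were under 1000 bases against 10.5% of tested accessions. In V1 the median of members under 1000 bases was 1.39 above the WT mean on the log2(CPM + 1) scale, that of members of 1000 bases or more was 0.65 above it, other transcripts under 1000 bases were 0.44 above it and transcripts of 4000 bases or more were 0.73 below it. In V3-2 and V5-2 members under 1000 bases stood at -1.06 and -1.10 and other transcripts of that length at -0.71 and -0.68. In AZ17 short members stood at 1.22 and other short transcripts at 0.27. The members' shifts thus had the sign of those of other short transcripts in these 4 libraries and were larger. What part of each shift comes from length was not tested.

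**Figure D2:**
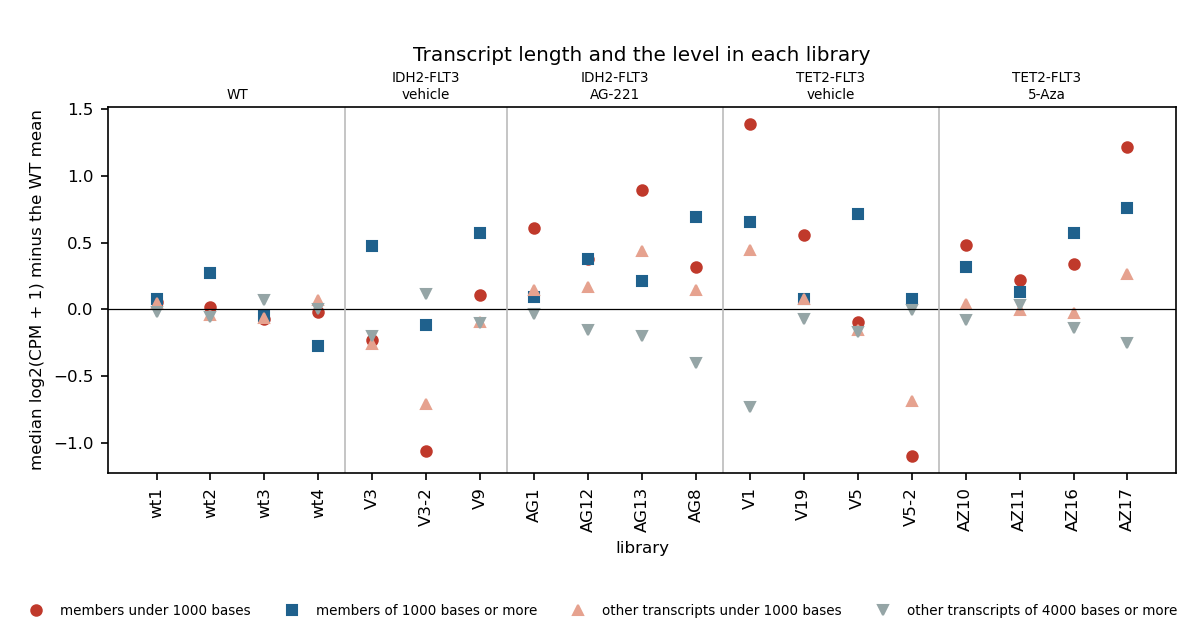
Median log2(CPM + 1) minus the WT mean (y axis) in each library (x axis, by group) for members under 1000 bases, members of 1000 bases or more, other tested transcripts under 1000 bases and other tested transcripts of 4000 bases or more. Short members range from -1.10 in V5-2 to 1.39 in V1, and in V1, V3-2, V5-2 and AZ17 the short transcripts that are no members have the same sign and lie nearer to 0.

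Few members changed between groups. Against WT, 5 of 68 changed in IDH2-FLT3 vehicle (4 higher and 1 lower), at an adjusted p under 0.05 in edgeR's quasi-likelihood test, where 20.5% of all tested accessions did so (10.1% higher, 10.4% lower). In TET2-FLT3 vehicle 3 changed against WT (2 higher and 1 lower), where 10.1% of all did (4.43% higher, 5.71% lower). With AG-221 2 members were lower than in vehicle and 0 higher, where 9.68% of all changed (4.39% higher, 5.29% lower). With 5-Aza 0 of 68 changed from vehicle, against 1.88% of all. Cox6a2 was the 1 member below WT with AG-221, where 2.71% of all changed, and the 1 below WT with 5-Aza, where 1.72% did. Between the 2 vehicle groups 0 members changed, against 4.28% of all, and 0 differed in the response to the 2 drugs (the AG-221 effect less the 5-Aza effect, each from its own vehicle), against 0.228% of all. Where edgeR called 0 members, those at an unadjusted p under 0.05 numbered 4 for 5-Aza against vehicle (12.5% of all accessions), 20 between the vehicle groups (21.0%) and 6 for the drug responses (15.5%). DESeq2 called 1 (Cox6a2), 6 and 0 in these comparisons, where it called 3.91%, 9.72% and 3.00% of all accessions, and limma-voom called 0 in each (1.94%, 1.62% and 0.778% of all). In bulk RNA, fewer cells of a type and less RNA per cell cannot be told apart.

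The medians of the set went further from 0 than the calls. The median log2 fold change of members was -0.22 in IDH2-FLT3 vehicle against WT (0.02 over all tested accessions) and 0.48 in TET2-FLT3 vehicle against WT (0.07). It was 0.63 with AG-221 against vehicle (all: -0.00), 0.07 with 5-Aza against vehicle (-0.05), 0.56 for AG-221 against WT (0.01) and 0.61 for 5-Aza against WT (-0.03). With an offset for transcript length the last 2 were 0.19 and 0.38 (all: 0.03 and -0.01), and without AZ17 that of 5-Aza was 0.37 (-0.02). The number of members above 0 was 23 in the first of these comparisons and 60, 55, 41, 59 and 58 in the next 5, against 46.1% to 54.0% of all accessions. Of other transcripts under 1000 bases, 30.7%, 53.5%, 79.3%, 55.4%, 71.7% and 54.3% were above 0, in the same order. With AG-221, 35 of 68 members did not overlap with vehicle in CPM, against 23.7% of all accessions and 33.3% of other transcripts under 1000 bases. Against WT, 34 members did not overlap with AG-221 (15.8% of all, 22.5% of other short transcripts) and 37 with 5-Aza (25.0% of all, 27.1% of other short transcripts). AG-221 and 5-Aza were each compared with the same WT libraries, so these counts are not independent. With a fit of the compared groups alone, 13 members were called for AG-221 against WT (7.64% of all accessions) and 30 for 5-Aza against WT (20.3% of all). Limma-voom called 11 and 23 members, where it called 18.01% and 23.3% of all accessions. For 5-Aza against WT the 1 edgeR call ended without AZ10, AZ11, AZ16, wt1 or wt3.

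Complex I takes electrons from NADH. Most of its 31 members are accessory subunits with short transcripts, and their values differed widely between libraries of 1 group. Ndufa4 read 1175, 1078, 1136 and 1456 CPM in WT and 602, 236 and 730 CPM in IDH2-FLT3 vehicle, with no overlap. The AG-221 libraries gave 1222, 1146, 1624 and 1216 CPM. TET2-FLT3 vehicle gave 2300, 1075, 658 and 231 CPM, where V1 was the highest and V5-2 the lowest of all 19 libraries. Its fold change passed neither in IDH2-FLT3 vehicle (log2 fold change -1.21 ± 0.52 (SE), adjusted p = 0.102 by edgeR) nor with AG-221 (1.32 ± 0.52, adjusted p = 0.1004 by edgeR). Of 13 alternative fits, 5 called Ndufa4 in the first of these comparisons and 3 in the second. With a library left out, 0 of 7 fits called it in each. The accessory Ndufb4 had the largest uncalled value with AG-221, at 48.8, 41.8, 84.3 and 42.5 CPM against 23.6, 4.71 and 28.5 CPM in vehicle (1.53 ± 0.66, adjusted p = 0.129 by edgeR). Ndufv1, the NADH-binding subunit, had 356, 208 and 299.9 CPM in IDH2-FLT3 vehicle against 141, 192, 128 and 107 CPM in WT and just missed the threshold (1.018 ± 0.37, adjusted p = 0.0548 by edgeR). The Ndufv1 change passed in 6 of 13 alternative fits and in 1 of 7 with a library left out. The median over complex I was -0.16 in IDH2-FLT3 vehicle and 0.25 in TET2-FLT3 vehicle against WT, and 0.69 with AG-221 against vehicle.

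Complex II, succinate dehydrogenase, is also an enzyme of the tricarboxylic acid (TCA) cycle. Its flavoprotein Sdha rose in IDH2-FLT3 vehicle. It read 309.9, 383, 331 and 252 CPM in WT and 830.0, 554 and 615 CPM in IDH2-FLT3 vehicle, with no overlap (log2 fold change 1.06 ± 0.34, adjusted p = 0.0304 by edgeR). This call ended without V3, wt1, wt3 or wt4 (adjusted p up to 0.138 by edgeR) and with V3 and V3-2, whose headers share a number, summed as 1 library (adjusted p = 0.0652 by edgeR). With AG-221 it read 340.4, 368, 249 and 565 CPM, so that AG8 lay among the vehicle libraries (-0.81 ± 0.34, adjusted p = 0.116 by edgeR). In TET2-FLT3 vehicle it read 663 and 576 CPM in V5 and V5-2 but 210.3 and 333 CPM in V1 and V19. V1 lay below every WT library and V19 within the WT range. The 3 other subunits did not pass in any comparison in the main edgeR fit, while limma-voom called Sdhc and Sdhd against WT with AG-221 and with 5-Aza, and the length and GC content offset called both in TET2-FLT3 vehicle. Sdhb had log2 fold changes of 0.20 ± 0.36 and 0.19 ± 0.33 in the 2 vehicle groups against WT, Sdhc 0.17 ± 0.25 and 0.43 ± 0.24, and Sdhd 0.26 ± 0.33 and 0.58 ± 0.31.

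None of the 8 complex III members passed in any of the 8 comparisons in the main edgeR fit. At an unadjusted p under 0.05 there were 1 in each vehicle group against WT (34.8% and 27.1% of all accessions), 3 with AG-221 (29.9%), 0 with 5-Aza (12.5%) and 3 between the vehicle groups (21.0%). The core protein Uqcrc1 read 1176, 446 and 889 CPM in IDH2-FLT3 vehicle and 400.3, 514, 293 and 279.7 CPM in WT, so that V3-2 overlapped WT (1.17 ± 0.50, adjusted p = 0.0998 by edgeR). The Uqcrc1 change passed in 3 of 13 alternative fits and in 0 of 7 with a library left out. The Rieske iron-sulfur protein Uqcrfs1 read 449 CPM in V1, 227 in V19, 78.1 in V5 and 180.1 in V5-2, against 100.5, 97.0, 107 and 96.9 CPM in WT (1.21 ± 0.41, adjusted p = 0.0611 by edgeR). The Uqcrfs1 change passed in 4 of 13 alternative fits and in 1 of 8 with a library left out. The hinge protein Uqcrh, which helps cytochrome c dock, read 847, 639, 1249 and 681 CPM with AG-221 and 386, 198 and 471 CPM in vehicle. These groups did not overlap, and the change of 1.28 ± 0.44 did not pass (adjusted p = 0.0651 by edgeR). The Uqcrh change passed in 5 of 13 alternative fits and in 1 of 7 with a library left out. The complex III median was -0.32 in IDH2-FLT3 vehicle and 0.56 in TET2-FLT3 vehicle against WT, and 0.91 with AG-221 against vehicle.

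Complex IV held the member with the largest change. Cox6a2, the heart and skeletal muscle isoform of subunit 6a, read 31.4, 31.1, 33.7 and 27.9 CPM in WT. IDH2-FLT3 vehicle gave 0.675, 0.432 and 2.49 CPM, and AG-221 gave 0.503, 0.421, 1.27 and 0.616 CPM. TET2-FLT3 vehicle gave 0.682, 2.11, 2.23 and 0.656 CPM, and 5-Aza gave 2.91, 2.26, 3.26 and 10.8 CPM. All 15 mutant libraries lay below the lowest WT library, and among them AZ17 stood apart as the highest. Cox6a2 fell against WT in each mutant group by edgeR, to 26.2-fold lower in IDH2-FLT3 vehicle (log2 fold change -4.71 ± 0.73, adjusted p = 2.97e-04), 21.7-fold lower in TET2-FLT3 vehicle (-4.44 ± 0.64, adjusted p = 2.85e-04), 43.9-fold lower with AG-221 (-5.46 ± 0.68, adjusted p = 9.09e-05) and 6.45-fold lower with 5-Aza (-2.69 ± 0.58, adjusted p = 0.0212). The first 3 calls held in each of the alternative fits and with each library left out, and the last ended without AZ10, AZ11, AZ16, wt1 or wt3 (adjusted p up to 0.0777 by edgeR). Between 5-Aza and vehicle the value was 1.75 ± 0.59 (adjusted p = 0.171 by edgeR), and the difference of the drug responses was -2.50 ± 0.89 (adjusted p = 0.202 by edgeR).

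The general isoform Cox6a1 was more abundant and showed no such pattern. Per length, Cox6a1 stood at 1244 ± 116 FPKM in WT and Cox6a2 at 53.0 ± 2.50 FPKM, and in IDH2-FLT3 vehicle they stood at 918 ± 480 and 1.70 ± 1.63 FPKM. In WT Cox6a1 read 629, 674, 577 and 482 CPM. IDH2-FLT3 vehicle gave 621, 214 and 769.9 CPM, and AG-221 gave 775, 512, 358 and 251 CPM. TET2-FLT3 vehicle gave 962, 868, 586 and 197 CPM, and 5-Aza gave 819, 663, 765 and 178 CPM. The groups overlapped, and its log2 fold changes against WT ran from -0.32 to 0.14 in the 4 mutant groups. Cox7a1, the muscle-type partner of Cox7a2, read 2.07, 2.87, 2.64 and 2.34 CPM in WT and 15.3, 9.599, 2.77 and 2.34 CPM in TET2-FLT3 vehicle. V1 and V19 were high and V5 and V5-2 within the WT range (1.58 ± 0.59, adjusted p = 0.0920 by edgeR). This change passed in 5 of 13 alternative fits and in 1 of 8 with a library left out. Between the vehicle groups Cox7a1 had the largest uncalled value of the set, -1.96 ± 0.67 (adjusted p = 0.0985 by edgeR). Cox8a, the general isoform of subunit 8, was at 80.2 CPM in AG8 and 121 CPM in AZ17, the lowest libraries, and at 350.3 to 422 CPM in WT. Its relatives Cox8b and Cox8c held 12 and 1 counts over all libraries.

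**Figure D3:**
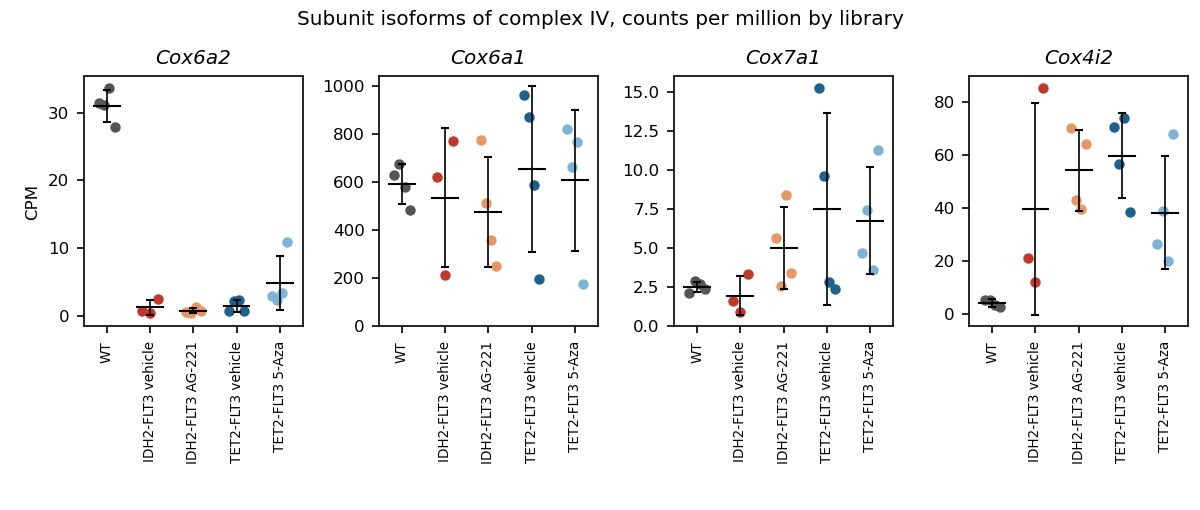
CPM of Cox6a2, Cox6a1, Cox7a1 and Cox4i2 (y axes) by group (x axis), with 1 point per library, the group mean as a line and its SD as bars. Cox6a2 lies between 27.9 and 33.7 CPM in WT and at or below 10.8 CPM in every mutant library, Cox4i2 lies between 2.66 and 5.36 CPM in WT and at or above 11.96 CPM in every mutant library, and Cox6a1 and Cox7a1 overlap between WT and the vehicle groups.

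Cox5a, a subunit that binds the catalytic core of complex IV, passed in TET2-FLT3 vehicle against WT (1.98 ± 0.53, adjusted p = 0.0242 by edgeR). It read 890.1, 339, 82.2 and 204 CPM in V1, V19, V5 and V5-2 against 110.5, 96.0, 103 and 73.7 CPM in WT. V5 lay within the WT range, and V1 was far above every other library. Without V1 the value was 1.12 and the call ended, as it did without any 1 WT library (adjusted p up to 0.127 by edgeR). Outside the symbol rule, Cox4i2, the hypoxia-inducible isoform of subunit 4, read 5.13, 5.36, 3.14 and 2.66 CPM in WT and rose in every mutant group. IDH2-FLT3 vehicle gave 21.2, 11.96 and 85.5 CPM, and AG-221 gave 70.4, 42.9, 39.8 and 64.2 CPM. TET2-FLT3 vehicle gave 70.5, 56.6, 73.9 and 38.3 CPM, and 5-Aza gave 26.4, 38.8, 19.9 and 68.05 CPM. All 15 mutant libraries lay above the highest WT library. The log2 fold changes against WT were 3.27 ± 0.54, 3.73 ± 0.53, 3.87 ± 0.53 and 3.23 ± 0.52 in these 4 groups (adjusted p = 4.77e-04, 3.54e-04, 2.24e-04 and 0.00199 by edgeR), and these calls held in every alternative fit and with each library left out. The general isoform Cox4i1 was at 0.337 CPM or less in every library, so the balance of the 2 isoforms is not read from these counts.

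Complex V is the ATP synthase. Its 2 large catalytic-head subunits rose in IDH2-FLT3 vehicle. The alpha subunit Atp5a1 read 961, 1166, 982 and 788 CPM in WT and 2181, 1707 and 1933 CPM in IDH2-FLT3 vehicle (0.99 ± 0.28, adjusted p = 0.0170 by edgeR). The beta subunit Atp5b read 1041, 1265, 1013 and 685 CPM in WT and 1660, 1792 and 1805 CPM in IDH2-FLT3 vehicle (0.81 ± 0.28, adjusted p = 0.0495 by edgeR). Neither overlapped between these groups. The Atp5a1 call ended without V3 (adjusted p = 0.0780 by edgeR). The Atp5b call ended when any library of the comparison other than wt2 was left out (adjusted p up to 0.129 by edgeR). It also ended in 8 of 13 other alternative fits, among them that with V3 and V3-2 summed (adjusted p = 0.0829 by edgeR). In TET2-FLT3 vehicle Atp5a1 read 1520, 1294, 2145 and 1856 CPM, above every WT library, and missed the threshold (0.81 ± 0.26, adjusted p = 0.0542 by edgeR). This change passed in 5 of 13 alternative fits and in 1 of 8 with a library left out.

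With AG-221 Atp5b fell from vehicle, at 992, 932, 786 and 619 CPM, the whole group below vehicle (-1.07 ± 0.29, adjusted p = 0.0270 by edgeR). The call ended without AG13, AG8, V3 or V3-2 (adjusted p up to 0.0932 by edgeR) and with V3 and V3-2 summed (adjusted p = 0.0666 by edgeR), and against WT Atp5b did not pass (-0.27 ± 0.27, adjusted p = 0.759 by edgeR). Atp5a1 read 1195, 1345, 846 and 1663 CPM with AG-221, also below all 3 vehicle libraries, and did not pass (-0.62 ± 0.28, adjusted p = 0.143 by edgeR). Most of the small subunits of complex V had values of the other sign. Atp5d, under 1000 bases long, did not. It read 278, 138, 151 and 65.7 CPM with AG-221 against 256, 238 and 381 CPM in vehicle. Atp5e, the epsilon subunit, read 1156, 874, 2010 and 839.7 CPM with AG-221 against 452, 268 and 628 CPM in vehicle, with no overlap (1.44 ± 0.57, adjusted p = 0.102 by edgeR). Of the 14 complex V members, 10 had values above 0 with AG-221, and the median was 0.61.

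**Figure D4:**
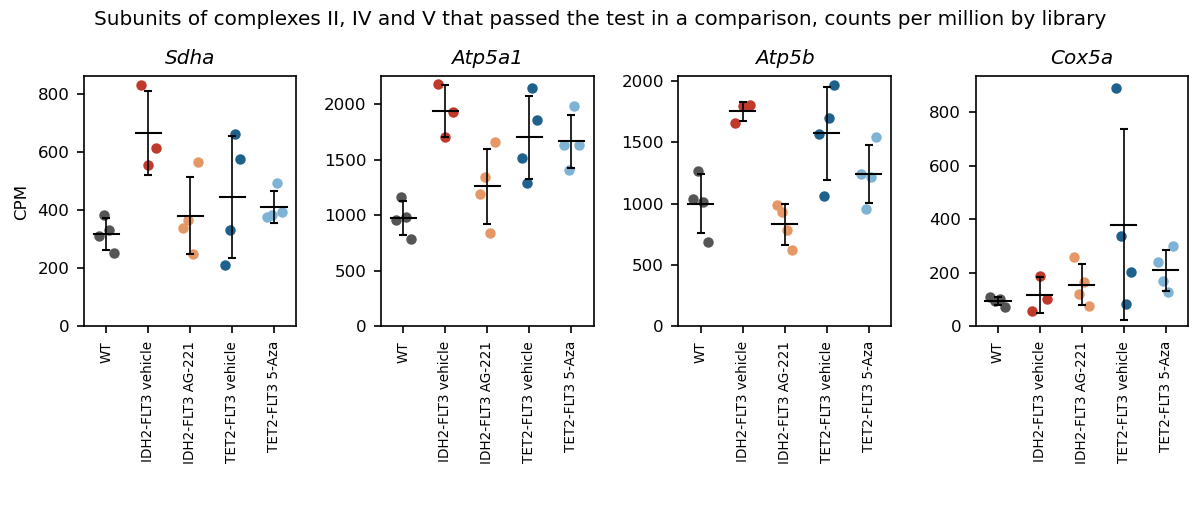
CPM of Sdha, Atp5a1, Atp5b and Cox5a (y axes) by group (x axis), with 1 point per library, the group mean as a line and its SD as bars. Sdha, Atp5a1 and Atp5b do not overlap between IDH2-FLT3 vehicle and WT, Atp5b lies below vehicle in all 4 AG-221 libraries, and for Cox5a V1 stands apart at 890.1 CPM.

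Atp5b, Atp5a1 and Sdha, which rose in IDH2-FLT3 vehicle, are among the longer transcripts of the set with 1879, 2431 and 2859 bases. Across the 68 members the log2 fold change went with length (Spearman's rho, as a description over genes that share libraries): 0.71 in IDH2-FLT3 vehicle against WT, -0.68 with AG-221 against vehicle, 0.71 between the vehicle groups and -0.70 for the difference of drug responses. It was -0.34 in TET2-FLT3 vehicle against WT and 0.10 with 5-Aza against vehicle. In IDH2-FLT3 vehicle against WT the median of members under 1000 bases was -0.34 and that of longer members 0.26, while other tested transcripts under 1000 bases had a median of -0.36. With AG-221 the medians were 0.78 for short and 0.15 for longer members, and 0.72 for other short transcripts. In TET2-FLT3 vehicle against WT short members had a median of 0.54 and other short transcripts one of 0.07.

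**Figure D5:**
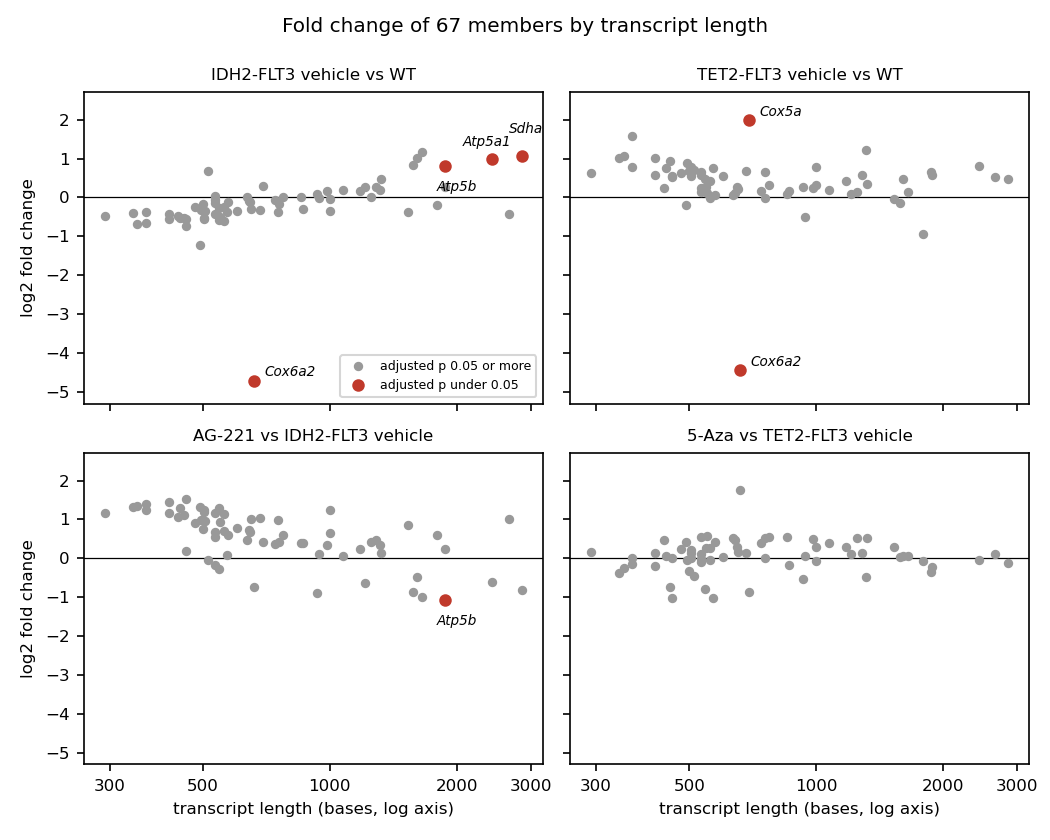
Log2 fold change (y axis) of 67 members against transcript length in bases (x axis, log scale) in 4 comparisons, with red points at an adjusted p under 0.05 in edgeR. Longer members have higher values in IDH2-FLT3 vehicle against WT and lower ones with AG-221 against vehicle, and Cox6a2 lies apart at -4.71 and -4.44 in the 2 vehicle groups.

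With an offset for transcript length in the fit, the median of members against WT was 0.24 in IDH2-FLT3 vehicle and 0.28 in TET2-FLT3 vehicle, and it was -0.08 with AG-221 against vehicle. Those of all accessions were 0.09, 0.11 and -0.04. The negative sign in IDH2-FLT3 vehicle and the positive one with AG-221 therefore both turned with this offset. With length and GC content together the medians were 0.41, 0.65 and 0.06, where those of all accessions were 0.29, 0.30 and -0.09. From FPKM plus 1 with limma-trend, where the test differs as well as the scaling, they were -0.56, -0.03 and 0.81, where those of all accessions were -0.20, -0.18 and 0.07, so the sign in TET2-FLT3 vehicle turned as well. These fits also moved the balance of calls over all accessions. In IDH2-FLT3 vehicle against WT 1195 accessions were higher and 1233 lower, but 560 and 2153 from FPKM plus 1, and 2494 and 1149 with length and GC content. In TET2-FLT3 vehicle 524 were higher and 675 lower, but 302 and 1453 from FPKM plus 0.1, and 1778 and 649 with length and GC content. With AG-221 519 were higher and 626 lower, but 1091 and 299 from FPKM plus 0.1. The 5 calls in IDH2-FLT3 vehicle, the 3 in TET2-FLT3 vehicle and the 2 with AG-221 were all kept under both offsets, but from FPKM only Cox6a2 against WT and Atp5b with AG-221 were.

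Library V1 carried much of the difference of TET2-FLT3 vehicle from WT and from IDH2-FLT3 vehicle, but not of that from 5-Aza. Without V1 the median of members in TET2-FLT3 vehicle against WT was 0.01, with 35 of 68 above 0. The median with 5-Aza against vehicle then became 0.61, that between the vehicle groups -0.15 and that of the difference of drug responses 0.19, from 0.07, -0.49 and 0.57. V5-2, at the other end, weighed the other way. Without it 26 members were lower in IDH2-FLT3 vehicle than in TET2-FLT3 vehicle, where 14.1% of all accessions were called, among them Cox5a, Cox7a1, Cox7c, Atp5e, Ndufa4 and Uqcrh. V3-2, the low library of IDH2-FLT3 vehicle, stayed in that fit. Without V5 there were 4 (6.99% of all accessions) and without V9 there was 1 (10.4%). With a term in the fit for the headers ending in -2, which V3-2 and V5-2 share and which was added after the data were seen, 0 members were called between the vehicle groups (6.61% of all) and the median there was -0.37. With this term the median in IDH2-FLT3 vehicle against WT was 0.13, that with AG-221 against vehicle 0.34, and that with 5-Aza against vehicle -0.08. In IDH2-FLT3 vehicle against WT the median was 0.00 without V3-2 and -0.49 without V9, and without V3 Cox6a2 alone was called.

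Genes of the same pathway outside the chain were taken from lists chosen, like the members, with earlier results of these data known. Of 17 tested genes of the TCA cycle and its entry enzyme, 7 rose in IDH2-FLT3 vehicle, with a list median of 0.77, and 14.0% of other transcripts of 2000 to 4000 bases rose. The count was 3 without V3, 4 without wt3 or wt4, 2 from FPKM and 11 with length and GC content. Pdha1, part of pyruvate dehydrogenase, and the citrate synthase gene Cs led with 1.29 ± 0.29 and 1.16 ± 0.27 (adjusted p = 0.00478 and 0.00552 by edgeR). Cs read 178, 242, 189 and 122 CPM in WT and 486, 396 and 345 CPM in IDH2-FLT3 vehicle, with no overlap. With AG-221 Pdha1 fell by 1.09 ± 0.29 and Cs by 1.09 ± 0.27 on the log2 scale (adjusted p = 0.0278 and 0.0214 by edgeR), 2 of 17 with a list median of -0.44. Of other transcripts of 2000 to 4000 bases 7.51% fell, with a median of -0.16, and of all accessions 5.29% fell. The Pdha1 and Cs calls both ended without V3 or V3-2 and with these libraries summed. In all, the Pdha1 call ended in 4 of 7 fits with a library left out and in 5 of 12 other fits. For Cs these were 2 of 7 and 2 of 12. In TET2-FLT3 vehicle 0 of 17 passed, with a median of 0.35, where 10.1% of all accessions passed.

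Of 39 tested assembly factors 1 rose and 1 fell in IDH2-FLT3 vehicle against WT, where 10.1% of all accessions rose and 10.4% fell. These were Cox15, needed to make heme A for complex IV, at 1.07 ± 0.33 and Bcs1l, which inserts the Rieske protein into complex III, at -1.98 ± 0.56 (adjusted p = 0.0248 and 0.0171 by edgeR). With AG-221 Bcs1l rose by 1.86 ± 0.56 and Coa5 fell by 0.91 ± 0.25 on the log2 scale (adjusted p = 0.0403 and 0.0306 by edgeR). Of all accessions 4.39% rose and 5.29% fell there. Bcs1l was low in every library, with 2.53, 3.25, 4.05 and 3.70 CPM in WT. IDH2-FLT3 vehicle gave 1.10, 0.673 and 0.802 CPM and AG-221 gave 3.22, 2.61, 4.69 and 2.00 CPM. In IDH2-FLT3 vehicle the Bcs1l call ended without V3-2 and the Cox15 call without V3, V3-2, wt3 or wt4 or with V3 and V3-2 summed. With AG-221 the Bcs1l call ended without any library but AG8, and the Coa5 call without any but AG12 or V9, and both ended with V3 and V3-2 summed. Of 17 regulators of mitochondrial biogenesis and mitochondrial DNA none passed in any comparison, with medians from -0.12 to 0.12. Of 73 mitochondrial ribosomal proteins only Mrpl54 passed, below WT with AG-221. The 76 cytosolic ribosomal proteins, another set of short transcripts with a median length of 682 bases, had medians of -0.25 and 0.35 in the 2 vehicle groups against WT and 0.74 with AG-221 against vehicle, with the signs of the respiratory chain members.

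Markers of several other cell types moved with the same groups. Summed markers of red cell precursors, 5 of 7 of them tested and with the globin genes Hba-a1 and Hbb-b1 at 0 in all 19 libraries, stood at 54.4 to 112 CPM in WT. They stood at 1.18 to 5.13 CPM in the vehicle and 3.12 to 20.7 CPM in the AG-221 libraries of the IDH2-FLT3 line, and at 1.23 to 5.28 CPM in the vehicle and 14.8 to 33.9 CPM in the 5-Aza libraries of the TET2-FLT3 line. B cell markers stood at 349 to 389 CPM in WT and at 46.2 to 139 CPM in all mutant libraries. Stem cell markers stood at 747 to 1213 CPM in WT, and in the same order of mutant groups at 20.8 to 108, 285 to 538, 183 to 419 and 409.9 to 739 CPM. Megakaryocyte markers stood at 253 to 307 CPM in WT and at 43.3 to 233 CPM in the mutant libraries. Of 7 granulocyte-monocyte progenitor markers all 7 rose in IDH2-FLT3 vehicle against WT, with summed levels of 19985 to 105417 CPM where WT libraries had 2197 to 13072 CPM. With AG-221 their sum was 7134 to 19843 CPM, and in the TET2-FLT3 line it was 5893 to 10596 CPM under vehicle and 5443 to 6859 CPM with 5-Aza. Of 5 tested monocyte markers all 5 rose in IDH2-FLT3 vehicle, with sums of 1593 to 5579 CPM against 384 to 756 CPM in WT. The monocyte sums were 532 to 2525 CPM with AG-221, 733 to 1784 CPM in TET2-FLT3 vehicle and 307 to 687 CPM with 5-Aza. Summed mature neutrophil markers, at 1432 to 3831 CPM in WT and 805 to 23684 CPM in IDH2-FLT3 vehicle, overlapped between these groups. Of 5 tested neutrophil markers 2 rose there and 0 fell. Summed T and NK cell markers, at 828 to 1302 and 477 to 1882 CPM, also overlapped. These sums were mostly Nkg7, at 822 to 1292 CPM in WT and 477 to 1882 CPM in IDH2-FLT3 vehicle. Of 3 tested T and NK cell markers 2 fell in IDH2-FLT3 vehicle and 0 rose. Cd3e and Cd3g were lower in every IDH2-FLT3 vehicle library than in any WT library. The part of these markers in the lower Cox6a2 or in the higher Sdha, Atp5a1 and Atp5b was not tested.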

How the data were processed

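RNA of 19 libraries (SMARTer Ultra Low Input kit, per the labels' protocols) was analysed from the authors' deposited raw counts and FPKM per RefSeq accession. STAR 2.4.0f1, featureCounts of Subread 1.4.5-p1 and mm9 are named in the submitters' processing notes; whether strand was used is not given in the sources used here. Accessions were named from RefSeq and GENCODE tables, and 189 without a name held 3.47% of counts. Headers of the columns gave the groups; 0 columns were of no sample. Lengths were recovered from the 2 deposited tables. Counts were tested with edgeR 4.0.16 (R 4.3.3): filterByExpr, TMM factors, and 1 quasi-likelihood model over the 19 libraries with a mean for each of 5 groups (14 residual degrees of freedom, common dispersion 0.184), with Benjamini-Hochberg adjustment over 11830 accessions; CPM use TMM-scaled totals. Depth was 9635795 to 20383132 counts per library. Alternatives were other factors and filters, DESeq2 1.42.0, the compared groups alone, and limma 3.58.1 as voom or, on FPKM, as trend, offsets for length or length and GC content, summed accessions, V3 with V3-2 and V5 with V5-2 summed, each library left out and, added after the data were seen, a term for headers ending in -2. Named members were the 3 with the highest FPKM per complex, the Sdh genes, those called, the uncalled one with the largest value per comparison and the isoform sets; others named were chosen after their values were seen. The counts and medians cover all 68 members, of which 1 is not reported here by itself or drawn. Members and lists were chosen with earlier results of these data known. The fit was tested on simulated data.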

Additional observations from a re-analysis of the deposited data

Results flagged for a closer look

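A library stood far from the other 3 of its group in 8 of 136 groups of 4 libraries tested, 104 of them on the CPM of 26 named members and 32 on medians of the set, its complexes and its length classes, where chance gives about 1 in 20 groups. All 8 were on members. In AZ17 of 5-Aza, Uqcrh read 1169 CPM (the others 579.5 to 667), Uqcr11 679 CPM (279 to 347), Atp5j2 838 CPM (415 to 438) and Cox6a2 10.8 CPM (2.26 to 3.26). In AZ16 Sdha read 493 CPM (376 to 393). In AG13 of AG-221, Ndufa4 read 1624 CPM (1146 to 1222) and Ndufb4 84.3 CPM (41.8 to 48.8). In wt3 Ndufb4 read 29.2 CPM (32.1 to 32.7). AZ17 thus gave 4 of these 8 and AG13 gave 2.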

How the results depend on the processing

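The number of members called depended on the fit, and so did the share of all accessions called, given in parentheses. For IDH2-FLT3 vehicle against WT (5 called, 20.5% of all) it was 8 with limma-voom (29.2%), 2 from FPKM plus 1 or plus 0.1 (22.9% and 22.1%), 8 with the length offset (23.0%), 11 with length and GC content (30.8%), 3 with V3 and V3-2 summed (13.1%), and 1 to 6 with a library left out. For TET2-FLT3 vehicle against WT (3, 10.1%) it was 6 with DESeq2 (16.3%), 1 with limma-voom (7.27%) and with either FPKM (15.9% and 14.8%), 5 with the length offset (12.2%), 23 with length and GC content (20.5%), 5 with V5 and V5-2 summed (11.2%), 8 with the term for headers ending in -2 (14.0%), and 1 to 4 with a library left out. For AG-221 against vehicle (2, 9.68%) it was 1 with no filter (5.72%), 0 with the compared groups alone (0.00%), 7 with DESeq2 (17.7%) and with limma-voom (15.5%), 10 from FPKM plus 1 (10.4%) and 12 from FPKM plus 0.1 (11.7%), 9 and 11 of them higher, 4 with either offset (10.6% and 12.8%), 0 with V3 and V3-2 summed (1.61%), and 0 to 4 with a library left out. For 5-Aza against vehicle (0, 1.88%) it was 1 with DESeq2 (3.91%) and 0 with each library left out. For AG-221 against WT (1, 2.71%) it was 13 with the compared groups alone (7.64%), 11 with limma-voom (18.01%), 2 from either FPKM (5.54% and 4.29%), and 1 to 2 with a library left out. For 5-Aza against WT (1, 1.72%) it was 30 with the compared groups alone (20.3%), 2 with DESeq2 (5.37%), 23 with limma-voom (23.3%), 2 with the length offset (2.38%), 11 with length and GC content (6.71%), 3 with the term for headers ending in -2 (4.07%), and 0 to 1 with a library left out. Between the vehicle groups (0, 4.28%) it was 1 with no filter (3.26%), 6 with DESeq2 (9.72%), and 0 to 26 with a library left out. For the difference of drug responses it was 0 throughout. The cause was not tested.

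No named fold change recomputed here changed sign, but medians of the set did. In IDH2-FLT3 vehicle against WT this was with either offset, with the -2 term and, at less than 0.01 from 0, without V3-2. In TET2-FLT3 vehicle against WT it was from FPKM. With AG-221 against vehicle and for the drug responses (-0.12) it was with the length offset. With 5-Aza against vehicle it was without V5-2 (-0.19) or AZ17 (-0.07), with V5 and V5-2 summed (-0.03) and with the -2 term. For 5-Aza against vehicle it was also, at less than 0.01 from 0, with length and GC content. No paired analysis was possible because the column headers of the mutant libraries carry no replicate numbers that the WT group shares. The -2 term was chosen after the data were seen, and what the suffix marks is not in the labels.

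Limits: 3 or 4 libraries per group with a biological coefficient of variation of 42.9% limited which changes passed the threshold, and a p that misses the threshold does not show that levels were alike. The 15 genes under the minimum were not tested. Libraries V1, V3-2, V5-2 and AZ17 hold most extremes of the set.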
